A study of Homo sapiens with 7 samples.

Results

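The metallothioneins are small cysteine-rich proteins that bind zinc, copper and cadmium. The genes described here are MT2A and the MT1 genes MT1A, MT1B, MT1E, MT1F, MT1G, MT1H, MT1M and MT1X. They were chosen by symbol, not by their values, and make up 9 of the 26364 gene symbols in the count tables. All 9 had counts, and all 9 passed the filter for testing. The tables also hold 7 further symbols of the family: the expressed pseudogenes MT1L, MT1JP, MT1IP and MT1DP, the MT1H-like copy MT1HL1, and MT3 and MT4.

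Metallothioneins buffer free zinc in the cell. When zinc rises, the zinc-sensing transcription factor MTF1 binds metal response elements in their promoters and switches them on, together with the zinc exporter gene SLC30A1. MT2A and several MT1 genes are active in most human tissues, including cells of the monocyte lineage, while MT3 is best known from brain and MT4 from stratified epithelium.

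Gene counts came from RNA sequencing of U937, a human monocytic line that the labels give as acute monocytic leukaemia, in 7 libraries of 3 groups. MT_mock (n = 3) was the parental line, which the labels call U937 MT; they do not say what MT stands for in this name. B412_mock (n = 2) was the derived line U937 B412, which makes the PLZF/RARA fusion protein in zinc, and B412_GSK126 (n = 2) was B412 given 2.5 µM GSK126, which blocks catalysis by the histone methyltransferase EZH2, for 96 h. Every library had 0.1 mM ZnSO4, so all 3 groups share the metal that induces these genes. A zinc pretreatment of 24 h is stated for B412 and not for the parental line. No zinc-free library was analysed here, and the values are therefore levels in zinc, not induction by it. The labels name neither the promoter that drives the fusion nor the number of clones behind B412. Nor do they say that replicates were grown separately: the p-values rest on the spread among these libraries alone, and that spread may be technical.

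Total counts lay between 12736244 and 14848130 per library. The libraries fell into 2 sets, each with members of all 3 groups. The leading principal component, over 13508 tested genes without metallothioneins, held 65.7% of the variance of log2 CPM (CPM being each count scaled to a common library total). Set 1 was MT_mock 1 and 2, B412_mock 1 and B412_GSK126 1, and set 2 was MT_mock 3, B412_mock 2 and B412_GSK126 2. No label names a batch. Because each set held every group, each comparison is given without the set, with the set as a term in the fit, and within each set. All 10 monocytic markers listed had counts in at least 1 library. CD14 had none in MT_mock, and CSF1R had at most 9 counts in any library. The summed level of the 10 was 1794 to 6994 CPM in MT_mock, 822 to 2633 in B412_mock and 1398 to 4942 in B412_GSK126. MPO alone had 6023 of the 6994 CPM in MT_mock 3. With the set term, the monocytic markers CD68 and MPO and the B cell marker CD79A were lower in both B412 groups than in MT_mock (CD68 log2 change -1.63 without and -2.51 with GSK126, edgeR adjusted p = 0.00662 and 0.000677); their part in the results was not tested. Markers of fibroblasts and epithelium summed to at most 6.94 CPM, in MT_mock 1, where the keratin KRT14 had 6.53 CPM against at most 0.832 in the other libraries, and CD3G, MS4A1, PF4 and KRT5 had no counts.

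The coding sequences show how alike these genes are, which bears on how well reads can be assigned. In the GENCODE v29 annotation (GRCh38) each of the 9 has a coding sequence of 186 bases, or 62 codons with the stop. Cysteine takes 20 of the codons in 8 of the genes and 21 in MT1B. The sequences below are those of the most read gene of the family (MT2A), its closest relative by coding sequence (MT1G), the gene with the least unique transcript (MT1X) and the most diverged (MT1B). Capitals mark bases that differ from MT2A.
MT2A: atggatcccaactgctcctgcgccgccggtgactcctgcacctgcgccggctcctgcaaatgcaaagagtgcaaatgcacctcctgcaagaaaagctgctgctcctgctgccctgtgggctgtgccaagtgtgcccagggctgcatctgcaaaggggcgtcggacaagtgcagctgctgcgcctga
MT1G: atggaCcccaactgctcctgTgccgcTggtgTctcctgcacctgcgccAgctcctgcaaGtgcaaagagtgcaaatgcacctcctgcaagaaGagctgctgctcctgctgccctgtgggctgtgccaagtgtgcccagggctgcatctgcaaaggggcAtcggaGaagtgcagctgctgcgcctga
MT1X: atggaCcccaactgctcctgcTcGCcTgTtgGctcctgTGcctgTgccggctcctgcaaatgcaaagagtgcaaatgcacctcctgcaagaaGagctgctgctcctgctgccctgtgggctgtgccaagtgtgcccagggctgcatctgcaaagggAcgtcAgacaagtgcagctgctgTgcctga
MT1B: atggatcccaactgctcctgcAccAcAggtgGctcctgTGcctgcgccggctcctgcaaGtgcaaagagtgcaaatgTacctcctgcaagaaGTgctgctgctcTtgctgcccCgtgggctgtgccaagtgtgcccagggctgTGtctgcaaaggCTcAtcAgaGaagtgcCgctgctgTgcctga
MT1G differed from MT2A at 9 bases (95.2% identity) and MT1B at 21 (88.7%). MT1A, MT1E and MT1X differed at 14 bases each, MT1H at 15, MT1F at 16 and MT1M at 19. All the genes lie on chromosome 16 in GRCh38, MT2A at 56608199 to 56609497 and MT1X, at the far end, at 56682424 to 56684196. MT1G is on the minus strand and the other 8 are on the plus strand.

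Of all 50-base windows of the main transcript, 95.1% occurred in no other gene's transcript for MT2A, 96.4% for MT1F, 94.7% for MT1E, 94.2% for MT1A and 92.9% for MT1M. The share was lower for MT1G (79.8%, most shared with MT1X), MT1H (79.6%, with MT1HL1), MT1B (78.2%, with AC026461.2) and MT1X (54.9%, with the overlapping AC026461.1). At 100 bases the lowest share was 80.9%, for MT1X, and 6 of the 9 genes were fully unique. How multi-mapped reads were counted and the read length are not given in the labels or files, so the split of reads among MT1X, MT1G, MT1H, MT1B and their close copies is uncertain.

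Promoters were at hand for 4 of the 9 genes, from 250 bases before to 50 after the RefSeq start (GRCh38.p14). They were searched on both strands for the core of the metal response element, TGCACNC, or TGCGCNC in the less common form. MT1X, MT1H and MT1B are shown as far as the annotation has no exon there, with matches in capitals. MT2A is not shown, because its whole window lies within annotated exons of the gene.
MT1X (chr16:56682220-56682423, plus strand): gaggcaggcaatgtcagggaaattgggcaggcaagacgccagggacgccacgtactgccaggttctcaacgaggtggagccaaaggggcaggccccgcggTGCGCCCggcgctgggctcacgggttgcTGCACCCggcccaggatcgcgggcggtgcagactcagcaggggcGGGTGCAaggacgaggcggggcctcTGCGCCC
MT1H (chr16:56669564-56669813, plus strand): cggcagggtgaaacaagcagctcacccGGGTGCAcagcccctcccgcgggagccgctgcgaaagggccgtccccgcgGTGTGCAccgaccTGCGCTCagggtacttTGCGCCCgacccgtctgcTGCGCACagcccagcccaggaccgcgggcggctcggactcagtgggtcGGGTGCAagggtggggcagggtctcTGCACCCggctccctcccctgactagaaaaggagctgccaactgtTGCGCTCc
MT1B (chr16:56651636-56651885, plus strand): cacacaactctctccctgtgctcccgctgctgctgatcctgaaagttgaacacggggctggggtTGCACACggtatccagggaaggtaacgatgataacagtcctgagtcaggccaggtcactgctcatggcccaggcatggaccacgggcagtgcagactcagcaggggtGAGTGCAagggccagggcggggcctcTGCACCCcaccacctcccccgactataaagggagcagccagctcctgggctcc
MT2A had 8 matches in its window, MT1H 8, MT1X 4 and MT1B 3. For MT2A, 1 match lay after the start (30 to 36), and for the other genes all lay before it. Among 35116 promoter windows of the same length, 29.6% held at least 1 match, 2.30% at least 3, 0.601% at least 4 and 0.0199% at least 8. MT2A and MT1H had as many matches as each other, while MT2A had at least 3005 CPM and MT1H at most 11.2 CPM in every library. Whether the number of matches goes with the level was not tested.

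Metallothionein messages were among the most abundant in these cells. The 9 genes together took 2.84%, 1.52% and 1.46% of all counts in MT_mock 1, 2 and 3. They took 1.47% and 0.643% in B412_mock 1 and 2, and 1.47% and 1.45% in B412_GSK126 1 and 2. Exact 95% binomial (Clopper-Pearson) intervals were narrow, at 0.639% to 0.647% for B412_mock 2 and 2.83% to 2.84% for MT_mock 1. These intervals cover counting error only, since no molecular identifiers are named. The group means were 1.94% ± 0.778 (SD, n = 3), 1.05% ± 0.582 (SD, n = 2) and 1.46% ± 0.00798 (SD, n = 2). MT_mock 1, the library with most KRT14, stood above and B412_mock 2 below the other 5 libraries, which lay within 1.45% to 1.52%. The highest share was 4.41 times the lowest, and the groups overlapped. In bulk RNA, fewer cells expressing these genes and less RNA per cell cannot be told apart.

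**Figure D1:**
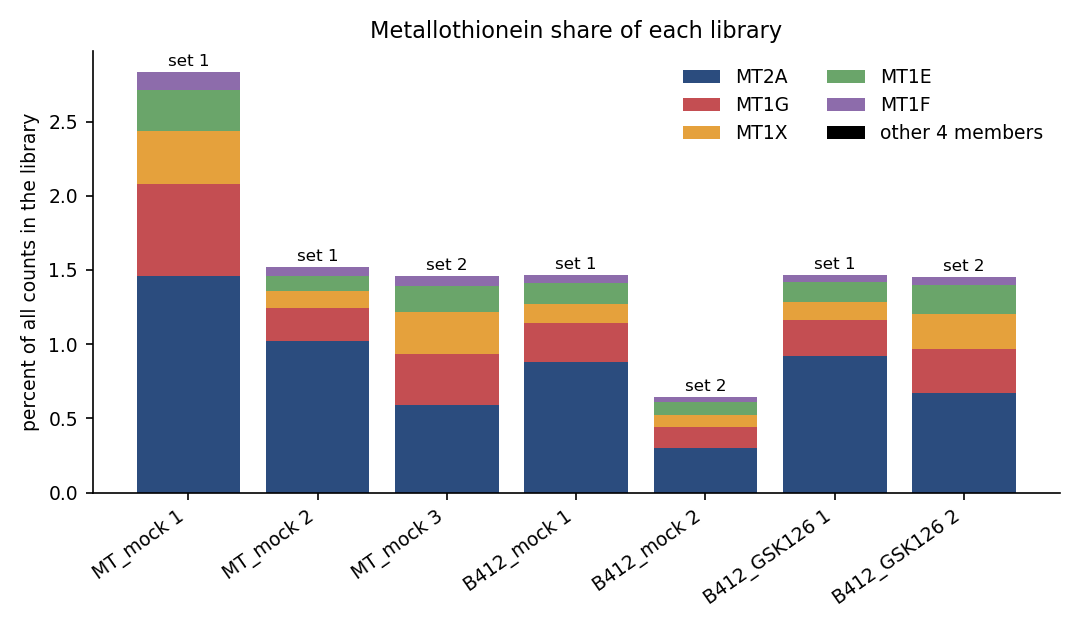
Percent of all counts taken by each metallothionein gene in each of the 7 libraries, as stacked bars with 1 bar per library; the 4 least read genes form a slice too thin to see. The bars reach 2.84% in MT_mock 1 and 0.643% in B412_mock 2, and MT2A is the largest slice in all 7.

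MT2A, the main metallothionein of most human tissues, was the gene with the most counts in the whole library in 4 of 7 libraries. It ranked 3 in MT_mock 3, 2 in B412_GSK126 2 and 13 in B412_mock 2. Its level was 14577, 10237 and 5907 CPM in MT_mock, 8778 and 3005 CPM in B412_mock, and 9168 and 6731 CPM in B412_GSK126. The means were 10240 ± 4335 (SD, n = 3), 5891 ± 4082 (SD, n = 2) and 7949 ± 1723 (SD, n = 2) CPM. The lowest library of each group was the one in set 2, and the 3 groups overlapped.

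MT1G, the most read of the MT1 genes, had 6201, 2220 and 3442 CPM in MT_mock, 2632 and 1391 in B412_mock, and 2474 and 2926 in B412_GSK126. MT1X had 3607, 1102 and 2803 CPM in MT_mock, 1265 and 837 in B412_mock, and 1175 and 2345 in B412_GSK126. MT1E had 2745, 1042 and 1769 CPM in MT_mock, 1436 and 843 in B412_mock, and 1352 and 1967 in B412_GSK126. For these 3 genes MT_mock 1 was highest, B412_mock 2 lowest, and the groups overlapped. MT1F had 1207, 564 and 671 CPM in MT_mock, 542 and 347 in B412_mock, and 484 and 564 in B412_GSK126. All 3 MT_mock libraries of MT1F were above both of B412_mock. Together with MT2A these 4 genes held 99.9% of the counts of the 9 in every library, after rounding.

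The other 4 genes were close to silent. MT1H had 11.2, 4.71 and 7.81 CPM in MT_mock, 4.55 and 4.53 in B412_mock, and 4.77 and 9.05 in B412_GSK126. MT1A lay between 1.48 CPM (B412_mock 2) and 4.57 CPM (MT_mock 3). The counts of MT1B were 18, 18 and 13 (MT_mock), 2 and 5 (B412_mock), and 5 and 14 (B412_GSK126). Those of MT1M were 21, 9 and 20, then 3 and 8, then 11 and 23, in the same order. Both were lowest in B412_mock 1, on a handful of reads.

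Outside the 9 genes, the pseudogene MT1JP was the most read symbol of the family, at 20.3 CPM in B412_mock 2 to 71.7 CPM in MT_mock 1. MT1HL1 had 3.43, 1.39 and 2.58 CPM in MT_mock, 0.550 and 0.520 in B412_mock, and 0.807 and 1.71 in B412_GSK126. MT1L had at most 3.37 CPM, MT1IP at most 0.876 CPM and MT1DP at most 14 counts. MT3 and MT4 had no counts in any library, which allows up to 0.202 to 0.236 CPM (3 counts per library).

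Levels of different genes were compared per kilobase of the GENCODE main transcript. In MT_mock the mean was 13028 ± 5515 CPM per kilobase for MT2A, 9739 ± 5023 for MT1G, 5564 ± 2843 for MT1X, 2630 ± 1214 for MT1E and 1180 ± 499 for MT1F (SD, n = 3). It was 20.0 ± 8.23 for MT1H, 9.0 ± 3.44 for MT1A, 3.0 ± 0.416 for MT1B and 1.41 ± 0.572 for MT1M (SD, n = 3). Neighbours among the upper 5 overlapped between libraries of MT_mock, and each neighbour from MT1F downwards did not. The order was the same in every library with 2 exceptions: MT1G was above MT2A in MT_mock 3, and MT1M above MT1B in B412_GSK126 1. With the length of all exons in place of the main transcript, MT1E (1760 CPM per kilobase) stood above MT1X (1412) in MT_mock. The order of these neighbours therefore depends on the transcript assumed. MT2A has annotated exons before its RefSeq start, so its order with MT1G in MT_mock 3 may depend on the transcript too.

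**Figure D2:**
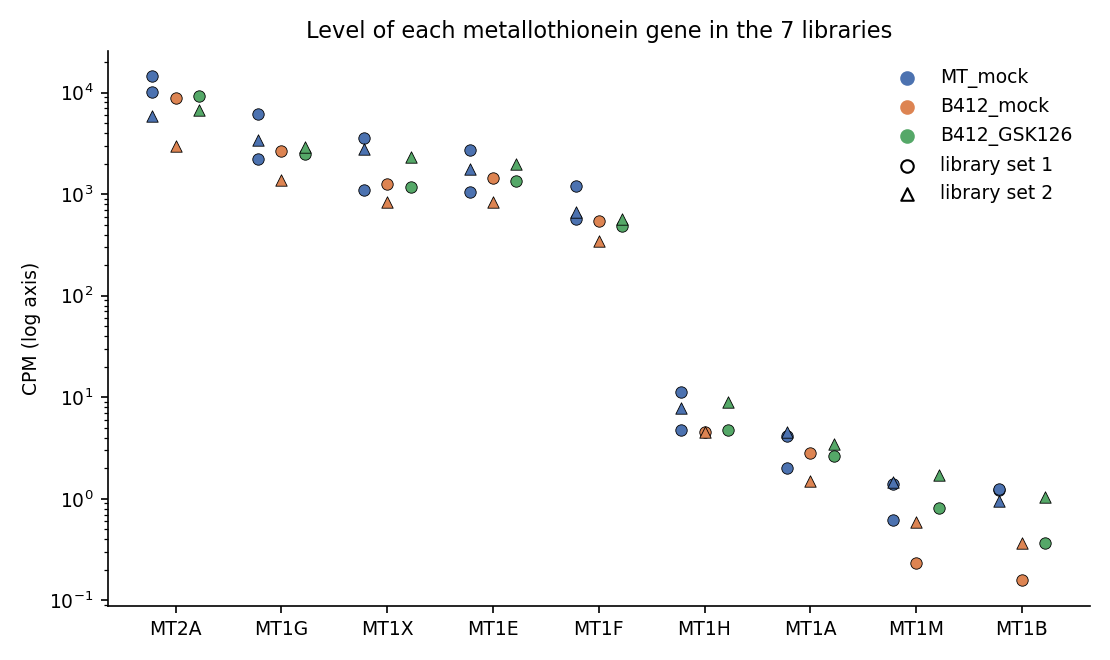
Level of each of the 9 metallothionein genes in CPM (log axis) in the 7 libraries, with genes along the x axis and points marked by group and library set. MT2A, MT1G, MT1X, MT1E and MT1F lie between 347 and 14577 CPM, and MT1H, MT1A, MT1M and MT1B between 0.157 and 11.2 CPM.

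The part of the family's counts held by MT2A differed between the library sets. MT2A made up 51.4%, 67.5%, 59.9% and 62.5% of the counts of the 9 genes in the libraries of set 1 (MT_mock 1 and 2, B412_mock 1, B412_GSK126 1). It made up 40.4%, 46.7% and 46.3% in those of set 2 (MT_mock 3, B412_mock 2, B412_GSK126 2). The sets did not overlap, and the genes that defined the sets did not include the family. The ratio of summed MT1 CPM to MT2A CPM ran from 0.482 in MT_mock 2 to 1.47 in MT_mock 3. Each group held both low and high ratios, and the group means of the MT2A percentage were 53.1%, 53.3% and 54.4%. Set 2 minus set 1, the log2 difference with groups held equal was -1.20 for MT2A, -0.49 for MT1G, -0.46 for MT1F, -0.28 for MT1E, 0.06 for MT1X and 0.72 for MT1M. Its median was -0.05 over the 9 genes and 0.04 over all tested genes.

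SLC30A1, the zinc exporter that MTF1 also controls, was higher in set 2. Its level was 5.65 to 6.33 CPM in the 4 libraries of set 1 and 36.5 to 55.4 CPM in the 3 of set 2, a log2 difference of 2.79. MTF1 itself lay between 16.4 and 25.9 CPM in all 7 libraries, with a log2 difference between sets of -0.16. Differences between the sets were common: 35.3% of all tested genes differed by at least as much as MT2A in either direction, and 5.72% by at least as much as SLC30A1. Of the 18 tested genes for the zinc sensor and zinc transporters, 6 differed by at least as much as MT2A, among them SLC39A4 (-2.02), SLC39A5 (-2.95) and SLC39A14 (1.56). What the sets stand for was not tested.

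**Figure D3:**
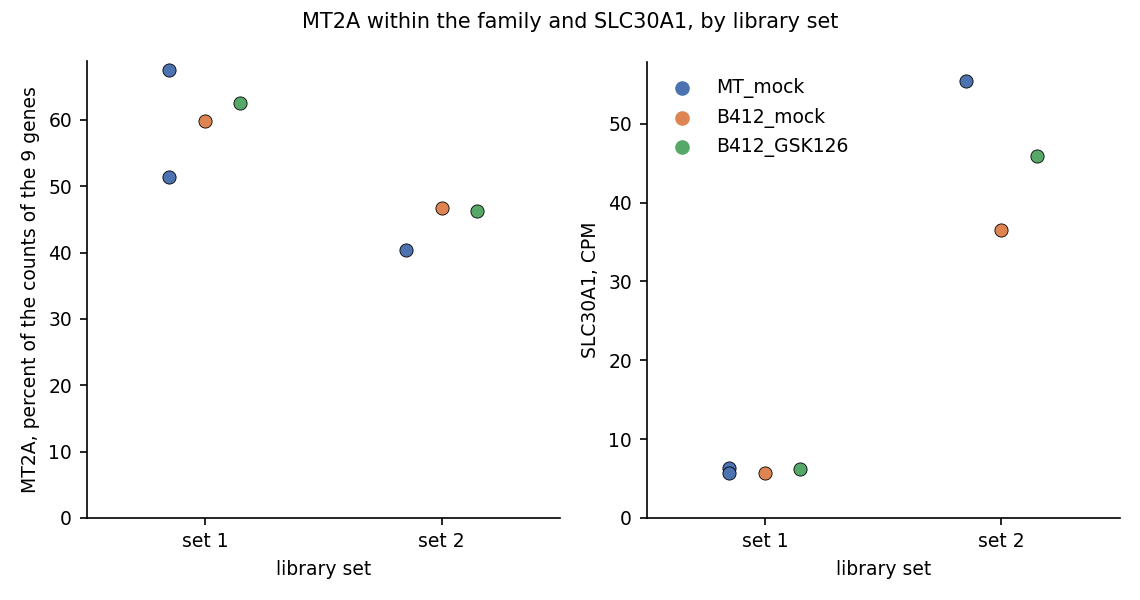
Percent of the metallothionein counts held by MT2A (left) and the CPM of SLC30A1 (right) by library set, with 1 point per library marked by group. MT2A holds 51.4% to 67.5% in set 1 and 40.4% to 46.7% in set 2, while SLC30A1 is at 5.65 to 6.33 CPM in set 1 and 36.5 to 55.4 CPM in set 2.

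B412_mock was set against MT_mock to see how fusion-bearing cells and parental cells differ at the same zinc concentration. The time in zinc before GSK126 or mock is stated for B412 only, so its part in the differences cannot be told apart. All 9 metallothionein genes were lower on average in B412_mock, and none passed the test. edgeR's quasi-likelihood test without covariate called 0 of the 9, against a background of 0% of 13521 tested genes called (Benjamini-Hochberg adjusted p = 1 for each of the 9). At an unadjusted p under 0.05 it had 0 of the 9 and 343 of all genes. The median log2 change of the 9 was -0.90, and that of all tested genes -0.01. It was -0.46 without MT_mock 1 and -1.39 without B412_mock 1. MT1B and MT1M passed the filter through the other groups, with no B412_mock library above 8 counts, so the filter favoured a lower level there. The other 7 had at least 20 counts in every library.

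The edgeR fit that took in the library set called 0 of the 9, where 2.35% of all tested genes passed. MT2A had a log2 change of -0.73 ± 0.228 (SE), a level 1.66-fold lower, with an edgeR adjusted p of 0.174. MT1F had -0.85 ± 0.316 (edgeR adjusted p = 0.266), and MT1X, the largest difference among the 5 abundant genes, -1.26 ± 0.654 (edgeR adjusted p = 0.491). MT1G had -0.97 ± 0.537, MT1E -0.70 ± 0.528, MT1H -0.86 ± 0.439, MT1A -0.73 ± 0.569, MT1M -1.73 ± 0.92 and MT1B -2.28 ± 1.04, with edgeR adjusted p between 0.337 and 0.634. At an unadjusted p under 0.05 this fit had MT2A and MT1F of the 7 better-read genes, MT1B, which the filter favoured, and 1972 of all genes. All 9 log2 changes were negative, where 51.1% of all tested genes were, and the median was -0.86 against -0.01.

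The mean difference was negative inside both library sets. Within set 1, B412_mock 1 was below the mean of MT_mock 1 and 2 for 9 of 9 genes, where 49.7% of all tested genes were lower. The differences ran from -0.01 for MT1A to -2.20 for MT1B, with a median of -0.58. This rested in part on MT_mock 1, since B412_mock 1 was above MT_mock 2 for MT1A, MT1E, MT1G and MT1X. Within set 2, B412_mock 2 was below MT_mock 3 for 9 of 9 genes, where 50.6% of all tested genes were lower, and the median was -1.14. MT2A differed by -0.45 in set 1 and -1.05 in set 2, and MT1X by -0.63 and -1.82. Both B412_mock libraries lay below all 3 of MT_mock for 2 of the 7 better-read genes, MT1F and MT1H, and for MT1B and MT1M, where the filter favoured it. No overlap in this direction was seen for 6.47% of all tested genes.

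DESeq2 with the set term called 2 of the 9 lower, MT1F (log2 change -0.84, DESeq2 adjusted p = 0.0451) and MT2A (-0.72, DESeq2 adjusted p = 0.0405), where 3.34% of all tested genes were called lower. Without MT_mock 2, edgeR with the set term called MT1G lower (log2 change -1.28, edgeR adjusted p = 0.0469), where 0.786% of all tested genes were called lower. The calls of these 3 genes therefore depended on the tool or on a library. The 9 genes share their libraries and some reads, so they are not independent of each other.

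B412_GSK126 was set against B412_mock to see what the EZH2 inhibitor changed in fusion-bearing cells. No metallothionein gene passed the test. edgeR called 0 of the 9 with and without the set term, as it did for 0% of all tested genes, with adjusted p = 1 for each of the 9 in both fits. At an unadjusted p under 0.05 the counts were 0 of the 9 without the term and 1, MT2A, with it, and over all genes 32 and 464. With the term, the log2 change was 0.60 ± 0.248 (SE) for MT2A, 0.66 for MT1X, 0.54 for MT1E, 0.46 for MT1G and 0.26 for MT1F. All 9 log2 changes were positive, where 51.8% of all tested genes were, and the median was 0.55 against 0.01. MT1B and MT1M passed the filter through groups other than B412_mock. For these genes the filter favoured a higher level with GSK126 throughout this comparison, also within the sets.

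These averages joined unlike sets. Within set 1, B412_GSK126 1 and B412_mock 1 had nearly the same level of MT2A (a log2 difference of 0.04), of MT1G (-0.11) and of MT1X (-0.13). There 4 of 9 genes were higher with GSK126, where 51.4% of all tested genes were, and the median was -0.11. Within set 2, B412_GSK126 2 was above B412_mock 2 for 9 of 9 genes, where 48% of all tested genes were higher, and the median was 1.15. MT2A differed there by 1.15 and MT1X by 1.48. With 1 library per group in each set, the difference between the sets was not tested. B412_mock 2 had the lowest share of metallothionein counts of all 7 libraries, and without it the median over the 9 was 0.08 in place of 0.48 in the fit without the term. Without B412_mock 1 it was 1.05. On TMM-scaled log2 CPM both GSK126 libraries lay above both mock libraries for MT1H, and for MT1B and MT1M, where the filter favoured it. All of these were nearly silent, and 7.04% of all tested genes lay higher without overlap. For MT1B this rested on the scaling alone, since B412_mock 2 and B412_GSK126 1 had 5 counts each.

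**Figure D4:**
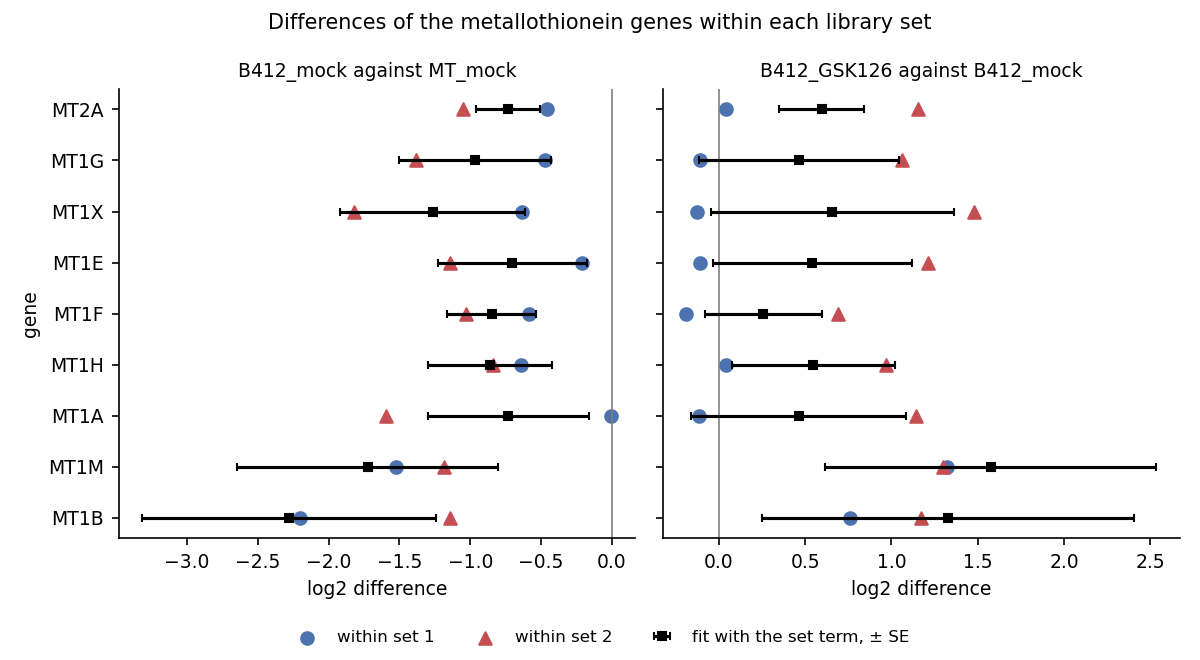
Log2 differences (x axes) of the 9 metallothionein genes for B412_mock against MT_mock (left) and B412_GSK126 against B412_mock (right), within set 1 (circles), within set 2 (triangles) and in the edgeR fit with the set term (squares, bars ± SE). On the left all points lie below 0, with MT1A at -0.01 in set 1; on the right MT2A lies at 0.04 in set 1 and 1.15 in set 2.

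B412_GSK126 was also set against MT_mock, which shares libraries with both comparisons above. edgeR called 0 of the 9 without the set term (0% of all tested genes) and with it (1.9% of all tested genes). With the term the log2 change was -0.14 ± 0.229 (SE) for MT2A, -0.50 ± 0.539 for MT1G, -0.61 ± 0.655 for MT1X and -0.59 ± 0.318 for MT1F, and the median of the 9 was -0.31. With the term all 9 log2 changes were negative, where 50% of all tested genes were. Without it 8 were negative and MT1M was positive (0.02), where 7193 of 13521 tested genes were negative. MT1B passed the filter through MT_mock, with 5 and 14 counts in B412_GSK126. For this gene the filter favoured a lower level in B412_GSK126 throughout this comparison, also within the sets. Within set 1, B412_GSK126 1 was below the mean of MT_mock 1 and 2 for all 9, where 48.2% of all tested genes were lower. This rested in part on MT_mock 1, since B412_GSK126 1 was above MT_mock 2 for MT1A, MT1E, MT1G, MT1M and MT1X. Within set 2 there were 5 higher and 4 lower, where 49.4% of all tested genes were higher. MT1F alone had no overlap, with 564 CPM in B412_GSK126 2 just under the lowest MT_mock library, and 5.9% of all tested genes were lower without overlap.

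No other gene of zinc handling passed the test between groups. Of 25 genes for the zinc sensor and the zinc transporters 18 were tested, and edgeR called 0 in each of the 3 comparisons with and without the set term. With the term, the share of all tested genes called was 2.35%, 0% and 1.9%, so lists of this length would hold few calls at the background rate. For B412_mock against MT_mock with the term, 5 were higher and 13 lower, with a median of -0.16. MTF1 had a log2 change of -0.27 ± 0.241 (SE) and SLC30A1 of -0.35 ± 0.244 in that fit (edgeR adjusted p = 0.668 and 0.566). For B412_GSK126 against B412_mock, MTF1 had -0.07 ± 0.263 and SLC30A1 0.23 ± 0.264 (edgeR adjusted p = 1 for both).

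Copper handling (9 of 9 genes tested), glucocorticoid-responsive genes (7 of 7 tested) and the genes flanking the metallothionein cluster on chromosome 16 (8 of 10 tested) had 0 calls in each comparison and both fits. The share of all tested genes called was at most 2.35% in any of these. Medians with the set term for B412_mock against MT_mock were -0.07, -0.11 and -0.07, nearer to all tested genes (-0.01) than the median of the metallothioneins (-0.86). Among 11 metal and oxidative stress genes, edgeR with the term called 1, SLC7A11, the cystine importer, higher in B412_GSK126 than in MT_mock (log2 change 1.20 ± 0.266 SE, adjusted p = 0.0427), where 1.9% of all tested genes were called. It called none of these 11 in the other comparisons. With the term, SLC7A11 was also higher in B412_mock than in MT_mock (log2 change 1.00 ± 0.263 SE, edgeR adjusted p = 0.079). Between B412_GSK126 and B412_mock it differed by 0.15 ± 0.50 (SE) in the fit without the term, whose SE is not comparable with those above. Within the sets that difference was -0.03 in set 1 and 0.39 in set 2.

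Across the 7 libraries the metallothioneins varied together to different degrees. Pearson's r of log2 CPM ran from 0.11 for MT1M with MT2A to 0.97 for MT1F with MT1G over 36 pairs. MT1X had r = 0.96 with MT1H and 0.94 with MT1E, and 0.50 with MT2A. MT2A had r = 0.82 with MT1F, 0.78 with MT1G and 0.68 with MT1E. Among 13508 tested genes outside the family, those most like the summed level of the 9 were C8orf82 (r = 0.989), SCARB1 (0.987), KRT9 (0.966), SLC43A1 (0.965) and PLXNB3 (0.965). After each set's mean was subtracted they were APBB2 (0.987), GOT1 (0.982), C8orf82 (0.981), MIR6843 (0.980) and SEPT10 (0.980). C8orf82 was on both lists. All these points share the same 7 libraries, and MT_mock 1 and B412_mock 2 carry most of the range, so the values are descriptions. KRT9, a keratin of thick skin, stood at 129 CPM in MT_mock 1 and at most 14.8 CPM in the other 6 libraries.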

How the data were processed

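Per the labels' protocols, total RNA was column-purified, cDNA made by SMART-Seq v3 Ultra Low Input chemistry, sheared, and turned into libraries with a NEBNext Ultra DNA kit. No strand marking or molecular identifiers are named. The values deposited by the authors are raw whole-number counts by gene symbol, 1 table per group. FastQC, Subread, featureCounts and hg19 are named per the submitters' processing notes, without versions, settings or annotation. No hg19 genome was at hand, so coordinates and sequences come from GENCODE v29 and RefSeq on GRCh38 and serve only to describe the genes.

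Groups and replicate numbers came from the sample titles. Counts were filtered (filterByExpr, minimum count 10, minimum total 15), leaving 13521 genes tested and 12843 not tested. TMM scaling was followed by edgeR 4.0.16 in R 4.3.3 (quasi-likelihood F test, robust, two-sided, group means, all 7 libraries), with Benjamini-Hochberg adjustment over all tested genes and a threshold of 0.05. Differences within sets and principal components used log2 CPM with a prior count of 2. The library-set term took the common biological coefficient of variation from 58.3% to 21.9% and the residual degrees of freedom from 4 to 3. The sets were taken from the same counts, so p-values with the term may be too small. DESeq2 1.42.0, other scalings, no filter, a replicate block, 2 groups only and leaving out each library were the alternatives. The procedure was tried on simulated counts for B412_mock against MT_mock and for B412_GSK126 against B412_mock. Changes were placed only in genes with more counts than MT1A, MT1B, MT1H and MT1M had. The simulation does not bear on those genes, and its outcome is not used as support here.

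The genes, lists and tests were chosen with earlier results of these data known. Named are the 9 genes, other family symbols with counts or listed at 0, MTF1, SLC30A1, list genes past the threshold, and the 5 genes most alike by each measure of likeness. AC026461.1, AC026461.2, KRT14, CD14, CSF1R, SLC39A4, SLC39A5, SLC39A14 and the markers without counts were named after their values were seen.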

Additional observations from a re-analysis of the deposited data

How the results depend on the processing

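Genes called for B412_mock against MT_mock were 0 in the reported test, 318 with the library-set term, 5 without a filter, 95 by DESeq2 and 688 by DESeq2 with the set term, which also called 2 metallothioneins. For B412_GSK126 against MT_mock they were 0, then 257 with the set term, 65 by DESeq2 and 611 by DESeq2 with the set term, and for B412_GSK126 against B412_mock 0, then 4 by DESeq2 with the set term. With a library left out, genes called stayed at 0 without the set term. With it they ranged from 33 (without B412_mock 1) to 587 (without MT_mock 1) for B412_mock against MT_mock, from 72 (without B412_GSK126 2) to 693 (without MT_mock 1) for B412_GSK126 against MT_mock, and from 0 to 3 (without B412_GSK126 1) for B412_GSK126 against B412_mock. Metallothioneins called ranged from 0 to 1 (without MT_mock 2). The cause was not tested. The mean share of counts in B412_GSK126 was 1.62% without ribosomal protein and mitochondrial genes. With a library left out, the mean share ranged from 1.49% to 2.18% in MT_mock and from 0.643% to 1.47% in B412_mock.

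For B412_mock against MT_mock, 204 of 207 values of single metallothionein genes under the alternatives kept their direction and their side of the threshold, and 3 became calls. None reversed. For B412_GSK126 against B412_mock 199 of 206 did, and 7 reversed, each with a library left out: MT1A ranged from -0.20 to 1.30, MT1F from -0.17 to 0.68, MT1G from -0.079 to 1.04 and MT2A from -0.24 to 1.51 (log2). For B412_GSK126 against MT_mock 187 of 207 did, and 20 reversed. There MT1M was -0.15 with the set term and -0.17 by DESeq2 with it, and MT1A 0.018 with the replicate block. With a library left out, MT1A ranged from -0.55 to 0.15, MT1E from -0.60 to 0.27, MT1H from -0.75 to 0.15, MT1M from -0.49 to 0.40 and MT2A from -0.77 to 0.26. The median over the 9 ranged from -1.51 to -0.46 for B412_mock against MT_mock and from 0.070 to 1.05 for B412_GSK126 against B412_mock. For B412_GSK126 against MT_mock it ranged from -0.75 (without B412_GSK126 2) to -0.092 (without B412_GSK126 1).

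Replicate numbers did not pair the libraries over all 3 groups. Correlations were taken over genes, on log2 CPM less the group mean. Same-numbered libraries had 0.66 and 0.62 for number 1 and -0.63 for MT_mock 2 with either B412 group. Between the B412 groups the correlation was 0.85, and the numbers match the sets there. With 2 libraries in each B412 group the deviations are exact opposites. Values for number 2 of B412 therefore mirror those for number 1 and add nothing to them. With the replicate block 0 genes and 0 metallothioneins were called in each comparison, and the medians were -1.06, 0.59 and -0.31. Number 3 exists in MT_mock only, so in this fit MT_mock 3 added nothing to the log2 changes. The block also joined MT_mock 2, of set 1, with the B412 libraries of set 2.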
